A study of Rattus norvegicus with 36 samples.

Results

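The genes described here are 7 vasoactive genes of the kidney: the peptide endothelin-1 (Edn1), its receptors Ednra and Ednrb, the peptide adrenomedullin (Adm) and the nitric oxide synthases Nos1, Nos2 and Nos3. They were chosen by gene symbol, and 6 of the 7 had a probe, out of 6444 gene symbols on the array. Edn1 and Nos2 had a pair of probes each, which made 8 probes. The probes of Ednra and Ednrb had no symbol in the array annotation used and were named through the RefSeq accession in the probe name. Nos3 was not analysed here. Levels were read on 36 one-colour CodeLink oligonucleotide arrays with 9911 probes, made from RNA of the kidneys of 31 male rats aged 6 to 8 weeks, and 5 of the rats had a second array from a separate aliquot of RNA. No strain is named in the labels.

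The 9 groups model acute renal failure by loss of blood flow or by a nephrotoxin, with controls. Normal rats (5) had no treatment. In the ischemia groups the blood supply of both kidneys was stopped for 40 min, and the kidneys were taken at 2 h (4 rats) or at 8 h (3 rats) into reperfusion. Another 3 rats were given 50 µg of alpha melanocyte stimulating hormone (alphaMSH), a peptide that per the labels inhibits this form of renal failure, intravenously after the ischemia, and were studied at 2 h of reperfusion. Mercuric chloride, which injures the proximal tubule, was injected under the skin at 4 mg/kg, with harvest at 2 h (3 rats) or 8 h (3 rats). Cisplatin, a platinum drug toxic to the tubule, was injected into the abdomen at 20 mg/kg, with harvest at 2 h (3 rats). The sham group (3 rats) was harvested 8 h after 40 min of surgery without ischemia. No sham group was harvested at 2 h, so at that time ischemia and surgery cannot be told apart. Volume depletion (4 rats) was brought about by the loop diuretic furosemide at 20 mg/kg, injected at the start and at 8 h, with a sodium-deficient diet, and harvest at 24 h.

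Endothelin-1 is a potent vasoconstrictor peptide made in the kidney. Through the receptor Ednra it constricts vascular smooth muscle, and through Ednrb, found on endothelium and collecting duct, it releases nitric oxide, promotes sodium excretion and is itself cleared from the blood. Adrenomedullin is a vasodilator and natriuretic peptide whose gene is a known target of hypoxia-inducible factor (HIF). Nitric oxide synthases make the vasodilator nitric oxide from arginine: Nos1 is the neuronal form, prominent in the macula densa, Nos2 the form induced by cytokines, and Nos3 the endothelial form.

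The 300 bases around the transcription start of Edn1 and Adm (250 before and 50 after it) are shown because these are the members that changed most, in the same ischemia groups. They are RefSeq sequences of the rat assembly GRCr8, at chr17:22666638-22666937 on the minus strand for Edn1 and chr1:174179950-174180249 on the plus strand for Adm, 5′ to 3′, with capitals for matches to the motifs searched.
Edn1: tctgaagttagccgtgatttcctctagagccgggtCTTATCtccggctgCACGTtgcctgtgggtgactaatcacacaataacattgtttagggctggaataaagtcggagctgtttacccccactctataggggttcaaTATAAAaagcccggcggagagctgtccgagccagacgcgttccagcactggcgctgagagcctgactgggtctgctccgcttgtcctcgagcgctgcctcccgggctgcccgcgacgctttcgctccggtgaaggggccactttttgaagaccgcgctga
Adm: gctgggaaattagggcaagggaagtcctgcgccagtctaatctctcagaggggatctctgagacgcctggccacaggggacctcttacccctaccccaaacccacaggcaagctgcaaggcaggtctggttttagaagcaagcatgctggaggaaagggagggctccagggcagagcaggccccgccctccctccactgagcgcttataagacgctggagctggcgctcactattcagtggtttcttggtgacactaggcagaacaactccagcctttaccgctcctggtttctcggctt
The motifs were searched on both strands: AP-1 (TGANTCA), the core of the hypoxia response element (ACGTG, and its form GCGTG), the site of GATA factors, written GATAAG, and the TATA box, written TATAAA. The Edn1 window held 3 matches that did not overlap. These were CTTATC, which is GATAAG read on the opposite strand, 215 bases before the start, CACGT, the hypoxia response element core on the opposite strand, 201 bases before it, and TATAAA, 110 bases before it. No match to these letters lay in the Adm window. The annotated Adm gene spans chr1:174164178-174182372, so this window lies inside the gene, and no other start of Adm was searched. Among 33469 promoter windows of the same length, 7.3% held the AP-1 letters, 19.3% ACGTG, 29.7% GCGTG, 7.1% GATAAG and 14.2% TATAAA. A match describes the letters and is no evidence of a bound site.

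A level below is a probe's intensity as a multiple of its array's median, and levels under a floor of 0.1 were set to the floor, so that a value of 0.1 is a bound. Changes are given in log2 units, each with its standard error (SE), from a fit of all groups and probes with limma, and a probe was called changed at a Benjamini-Hochberg adjusted p under 0.05 over all probes tested in that comparison. Lots of 24 and 12 arrays were used, and the labels do not say which array is of which lot. Following the 2 number series of the normal rats and the arrays' own profiles, normal rats 11 and 12, sham, cisplatin and 8 h mercuric chloride were taken as lot 2 and the other rats as lot 1, and each change is from the normal rats of the same lot. The deposited column of sham rat 3 was displaced by 2 lines against its probe names. It was moved back, which took its correlation with the other arrays' median profile from 0.0652 to 0.984, and values in the deposited order are given where a call differs. The labelled tissue was borne out by its markers, with mean levels of 43.9 for Lrp2 of the proximal tubule, 33.9 for Umod of the thick ascending limb and 14.1 for Aqp2 of the collecting duct, while of 4 adrenal genes on the array Cyp11a1 and Cyp11b1 were near the floor at 0.109 and 0.103, and Cyp21a1 and Cyp17a1 were above it at 0.458 and 2.09. Rat 3 of the 8 h ischemia group differed most from the other rats, since its array had the lowest correlation with the median profile (0.917) and 1.63% of its probes at the floor. Leaving that rat out changed no call of a member. Of 8 fat genes 6 were on the array. Ucp1, Adipoq, Fabp4 and Cidea had mean levels of 1.84, 1.21, 1.08 and 1.05. Lep and Plin1 were near the floor at 0.106 and 0.102. Their summed level ran from 2.80 in a normal rat to 12.8 in a volume depletion rat, and the amount of fat was not tested. In whole kidney RNA, fewer cells of a type and less RNA per cell cannot be told apart.

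Edn1 rose in every ischemia group and was not called changed in any other group. On its brighter probe the 3 normal rats of lot 1 had levels of 0.369, 0.329 and 0.199, and the 2 of lot 2 had 0.303 and 0.284. After 2 h of reperfusion the 4 rats had levels of 1.59, 1.31, 1.54 and 1.46. The 3 rats given alphaMSH had 2.40, 1.68 and 1.68, and the 3 rats at 8 h had 1.18, 1.31 and 1.501. All 10 ischemia rats lay far above every other rat, the highest of which had 0.388, in the cisplatin group. The change from normal was 2.35 ± 0.17 at 2 h (5.09-fold, adjusted p = 3.85e-10), 2.71 ± 0.19 at 2 h with alphaMSH (6.54-fold, adjusted p = 1.06e-10) and 2.19 ± 0.19 at 8 h (4.58-fold, adjusted p = 1.07e-09). The second probe of Edn1, which lay at the floor in 5 rats of the other groups, was called higher in the same 3 groups (adjusted p up to 0.00514 over the alternatives run). Its normal rats of lot 1 lay from 0.1 to 0.12, at or next to the floor, so the size of its change depends on the floor: 2.90 at 2 h, 3.38 with alphaMSH and 2.55 at 8 h became 2.00, 2.48 and 1.66 with a floor of 0.2.

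In the nephrotoxin and control groups Edn1 stayed within or next to the range of the normal rats. The 3 rats at 2 h of mercuric chloride had levels of 0.250, 0.273 and 0.189, a change of -0.30 ± 0.19 (adjusted p = 0.362). Without normal rat 3, the lowest of the normal rats, this became -0.57 with an adjusted p of 0.0435. At 8 h of mercuric chloride the levels were 0.304, 0.260 and 0.361, and the change was 0.06 ± 0.21 (adjusted p = 0.969). Cisplatin rats had 0.317, 0.370 and 0.388, all above both normal rats of their lot, with a change of 0.28 ± 0.21 (adjusted p = 1). Sham rats lay between 0.310 and 0.365, also above both normal rats of their lot, with a change of 0.20 ± 0.21 (adjusted p = 1). In volume depletion the levels ran from 0.264 to 0.331 and overlapped the normal rats, with a change of 0.04 ± 0.17 (adjusted p = 1).

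**Figure D1:**
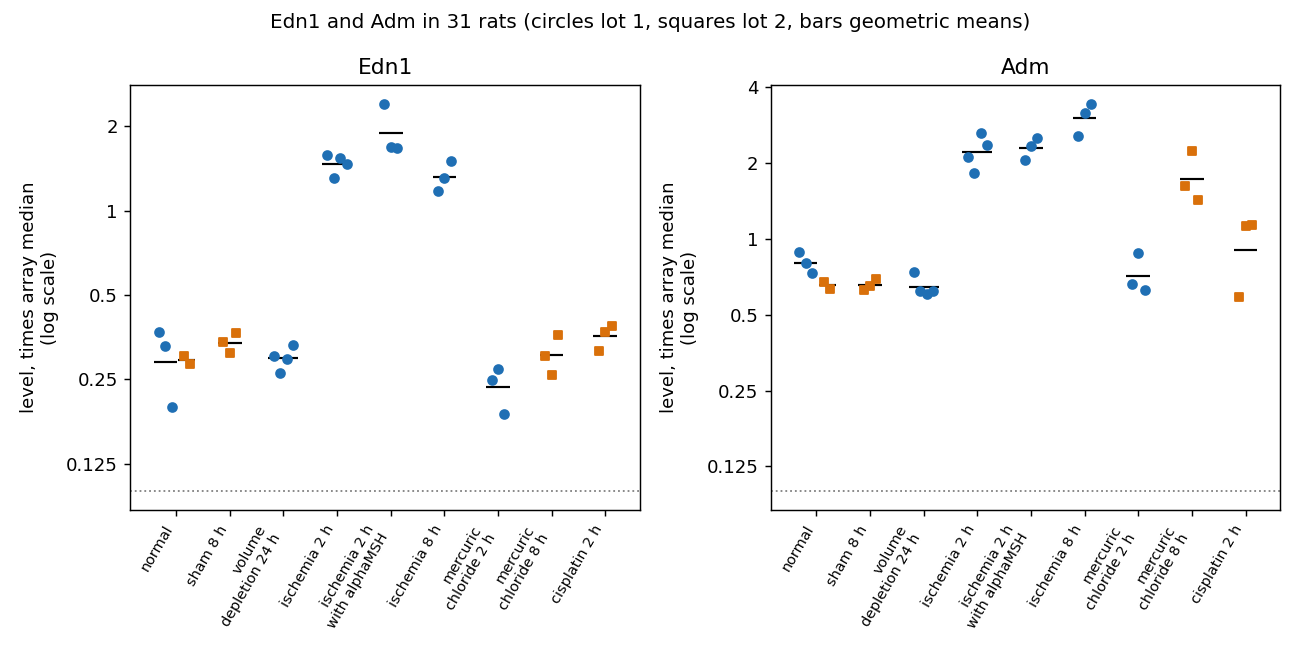
Level of Edn1 (brighter probe) and of Adm in each of 31 rats by group, as multiples of the array median on a log axis, with circles for lot 1, squares for lot 2, bars at the geometric mean of each group and lot, and a dotted line at the floor of 0.1. The Edn1 levels of the 10 ischemia rats, from 1.18 to 2.40, stand apart from all others, while Adm is high in the ischemia rats and also in the 3 rats at 8 h of mercuric chloride.

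Adm, the vasodilator peptide, rose in the ischemia groups and also at 8 h of mercuric chloride. The normal rats had levels of 0.884, 0.801 and 0.734 in lot 1 and 0.677 and 0.635 in lot 2. At 2 h of reperfusion the 4 rats had 2.12, 1.82, 2.63 and 2.37, a change of 1.46 ± 0.19 (2.76-fold, adjusted p = 3.24e-06). With alphaMSH the 3 rats had 2.05, 2.34 and 2.53, a change of 1.51 ± 0.20 (2.86-fold, adjusted p = 6.05e-06). At 8 h the 3 rats had 2.56, 3.17 and 3.43, a change of 1.92 ± 0.20 (3.77-fold, adjusted p = 3.72e-08). None of the 10 ischemia rats overlapped the normal rats.

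After mercuric chloride the Adm level differed between the times. The 3 rats at 2 h had 0.661, 0.883 and 0.630, around the level of the normal rats, with a change of -0.17 ± 0.20 (adjusted p = 0.706). At 8 h the 3 rats had 1.62, 2.23 and 1.43, all above the normal rats, with a change of 1.4 ± 0.22 (2.64-fold, adjusted p = 0.000124), and with sham rat 3 in its deposited order the adjusted p was 0.229. The difference between the changes at 8 h and 2 h was 1.57 ± 0.30 (adjusted p = 0.0084), where 0.729% of probes were called. These 2 times lie in different lots, and the call of the difference was lost without normal rat 12 (1.52, adjusted p = 0.0697), with the 2 groups and their normal rats fitted alone (adjusted p = 0.0566) and with sham rat 3 as deposited (adjusted p = 1).

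Cisplatin rats 2 and 3 had Adm levels of 1.12 and 1.14, whereas rat 1 had 0.587, below both normal rats of the lot. The change over the 3 rats was 0.47 ± 0.22 (adjusted p = 0.802), and without rat 1 it was 0.785 (adjusted p = 0.0366). Sham rats lay from 0.628 to 0.697, a change of 0.01 ± 0.22 (adjusted p = 1). All 4 rats with volume depletion were below the mean of their normal rats, at 0.605 to 0.737, with a change of -0.32 ± 0.19 that was not called (adjusted p = 0.99).

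Of the 5 members tested, 2 were called higher at 2 h of ischemia, Edn1 and Adm, in a comparison where 14.7% of all probes were called. At 8 h of ischemia 3 were called higher (Edn1, Adm and Ednrb) against 41.6% of probes. With alphaMSH the same 3 members were called higher against 13.2% of probes. Mercuric chloride gave 0 calls at 2 h against 7.68% of probes, and 1 at 8 h, Adm, against 10.9%. The other groups gave 0 calls among the members, against 0.58% of probes for cisplatin, 0.348% for sham and 0.169% for volume depletion. In these 3 comparisons, 580, 537 and 565 probes of all those tested had an unadjusted p under 0.05. Among the members' main probes this held for Ednrb, Adm and Nos1 in cisplatin rats and for none in sham or volume depletion. All 8 comparisons use the same normal rats of a lot, so they are not independent of each other.

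**Figure D2:**
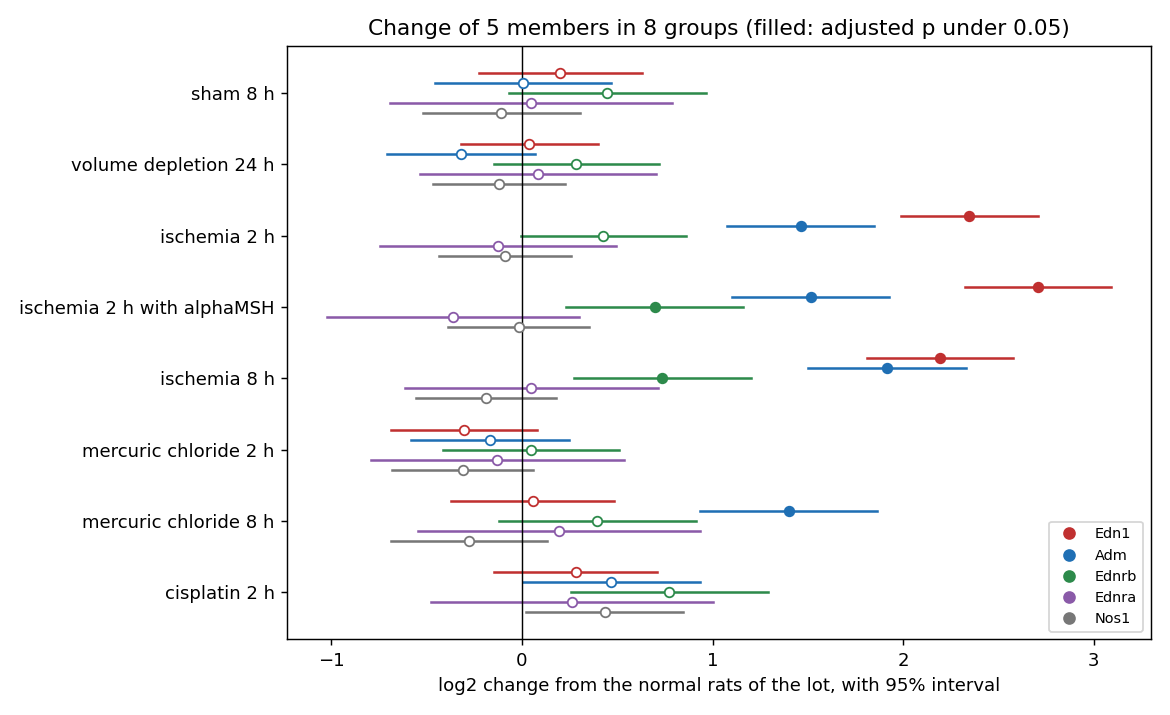
Change of the 5 tested members from the normal rats of the lot in the 8 treated or control groups, in log2 units, with 95% intervals from the limma fit, where filled points have an adjusted p under 0.05. Edn1 and Adm lie above 1 in the 3 ischemia groups, and Adm alone does so at 8 h of mercuric chloride, while Ednra and Nos1 are open points throughout.

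Ednrb, the receptor that clears endothelin and promotes sodium excretion, was called higher in 2 of the ischemia groups, by less than its ligand. The normal rats of lot 1 had levels of 0.640, 0.458 and 0.369. The rats at 8 h of ischemia had 0.824, 0.649 and 0.936, a change of 0.74 ± 0.22 (1.67-fold, adjusted p = 0.0101). Rats given alphaMSH had 0.769, 0.722 and 0.8294, a change of 0.70 ± 0.22 (1.62-fold, adjusted p = 0.0404). The 4 rats at 2 h of ischemia without alphaMSH, at 0.524, 0.728, 0.757 and 0.582, overlapped normal rat 1, and their change of 0.43 ± 0.21 was not called (adjusted p = 0.198). Both calls were lost without normal rat 3, with 0.55 (adjusted p = 0.0773) at 8 h and 0.51 (adjusted p = 0.169) with alphaMSH. The alphaMSH call was lost too without normal rat 2 (adjusted p = 0.107) or any 1 of its own 3 rats (adjusted p from 0.0628 to 0.12).

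The groups of lot 2 had Ednrb levels at least as high as the ischemia groups, but their normal rats were also high, at 0.612 and 0.747, a mean 0.50 above lot 1 on the log2 scale. The 2 arrays of normal rat 11 differed by 0.66 for this probe. Sham rats had 0.932, 0.961 and 0.875, all above both normal rats of the lot, with a change of 0.45 ± 0.25 (adjusted p = 1). Cisplatin rats had 1.00, 1.69 and 0.914, with a change of 0.77 ± 0.25 (1.71-fold) that was not called (adjusted p = 0.305). At 8 h of mercuric chloride the levels were 0.701, 1.28 and 0.786, a change of 0.39 ± 0.25 (adjusted p = 0.406), and at 2 h they were 0.568, 0.447 and 0.471, a change of 0.05 ± 0.22 (adjusted p = 0.97). Volume depletion gave 0.29 ± 0.21 (adjusted p = 1), from levels of 0.512 to 0.610. Against the sham rats, the change at 8 h of ischemia was larger by 0.29 ± 0.34 (adjusted p = 0.606), so the receptor's rise after ischemia was not separated from its level after surgery alone.

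Ednra, the vasoconstrictor receptor, was near the floor and was called in no comparison. It lay at the floor in 9 of 31 rats, and its highest level was 0.256, in normal rat 1. The 4 rats at 2 h of ischemia ranged from 0.1 to 0.187 and the 3 at 8 h from 0.135 to 0.209, both overlapping the normal rats of lot 1, which ranged from 0.1 to 0.256. Its changes from normal ran from -0.36 ± 0.32 with alphaMSH (adjusted p = 0.526) to 0.26 ± 0.36 with cisplatin (adjusted p = 1). The 2 arrays of 1 rat differed by up to 0.896 on the log2 scale for this probe, against up to 0.287 for Edn1 and 0.255 for Adm, and the fit could not exclude changes of up to 0.71 upwards at 8 h of ischemia.

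Nos1, the neuronal synthase, was dim as well and was called in no comparison. All rats lay between the floor of 0.1 and 0.250. The highest levels were those of the 3 cisplatin rats, at 0.250, 0.189 and 0.197, above both normal rats of their lot (0.142 and 0.171), with a change of 0.43 ± 0.20 (1.35-fold, adjusted p = 0.756). The other changes ran from -0.31 ± 0.18 at 2 h of mercuric chloride (adjusted p = 0.328) to -0.02 ± 0.18 with alphaMSH (adjusted p = 0.997). The probes of Nos2, the inducible synthase, were at the floor in 29 and 30 of the 31 rats and were not tested. The exceptions were ischemia 8 h rat 3, at 0.127 on one probe and 0.119 on the other, and cisplatin rat 2, at 0.113 on one. The arrays of these 2 rats had the fewest probes at the floor of all arrays, 1.63% and 4.29%, against 6.62% to 12.8% on the others.

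**Figure D3:**
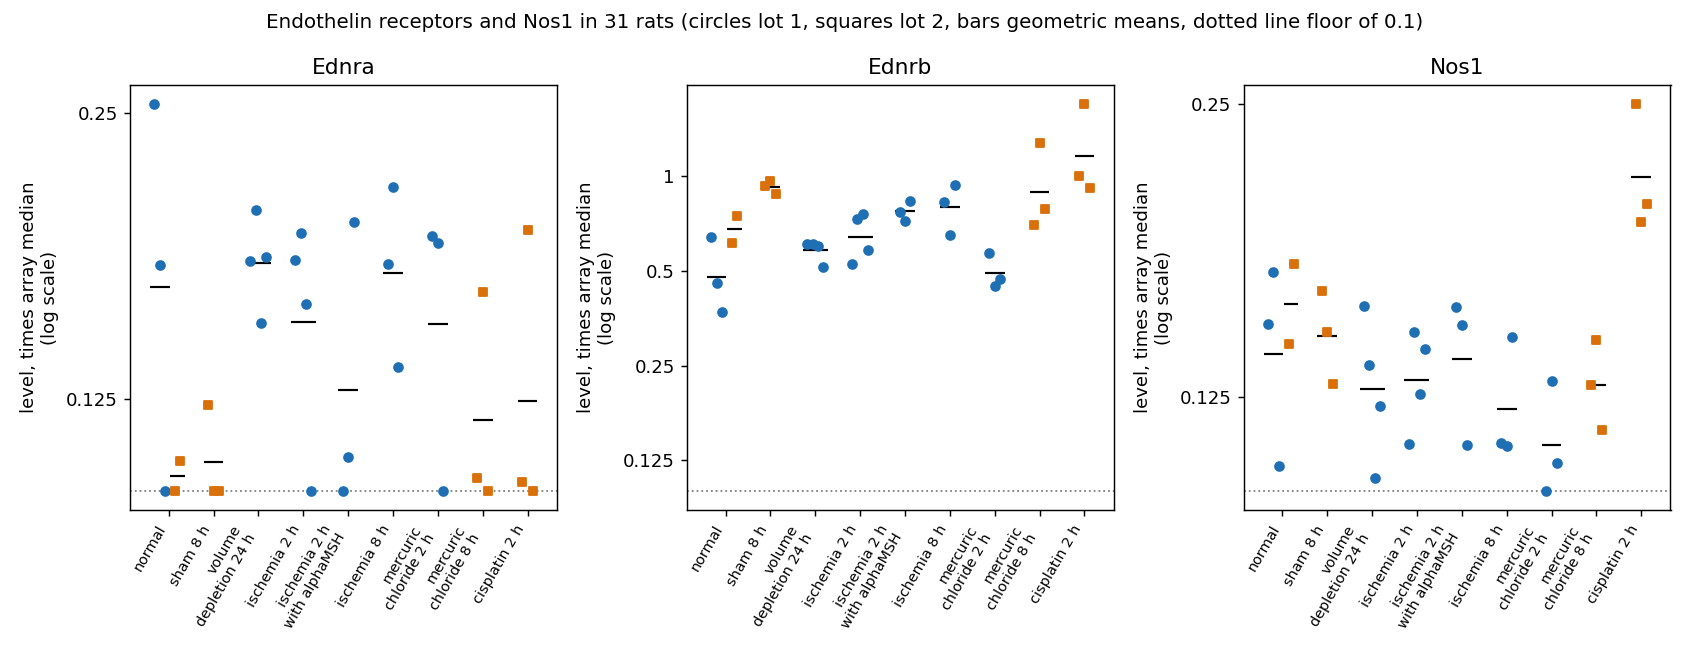
Levels of Ednra, Ednrb and Nos1 in each of 31 rats by group, as multiples of the array median on a log axis, with circles for lot 1, squares for lot 2, bars at the geometric mean and a dotted line at the floor of 0.1. Ednrb is well above the floor and differs between the lots in the normal rats, whereas Ednra and Nos1 lie close to the floor in all groups.

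Ischemia and the nephrotoxins were then compared at matched times. At 2 h, Edn1 was higher after ischemia than after mercuric chloride by 2.65 ± 0.17 (6.29-fold, adjusted p = 9.58e-11) and Adm by 1.63 ± 0.19 (3.09-fold, adjusted p = 9.26e-07), with no overlap for either and 15.1% of probes called. At 8 h the change of Edn1 was larger after ischemia than after mercuric chloride by 2.14 ± 0.28 (adjusted p = 1.11e-05), where 11.8% of probes were called. For Adm the same difference was 0.52 ± 0.30 (adjusted p = 0.312), with a 95% interval from -0.11 to 1.14, so a difference of either of those sizes is not excluded, and with all normal rats pooled and no lot term it was 0.81 and called (adjusted p = 0.00313). Against cisplatin at 2 h, where 2.2% of probes were called, the change after ischemia was larger by 2.06 ± 0.27 for Edn1 (adjusted p = 4.34e-05) and by 0.99 ± 0.29 for Adm (adjusted p = 0.0798). The Adm difference was called without cisplatin rat 2 (1.14, adjusted p = 0.049), without rat 3 (1.15, adjusted p = 0.0487) and with no lot term (1.29, adjusted p = 2.37e-05).

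**Figure D4:**
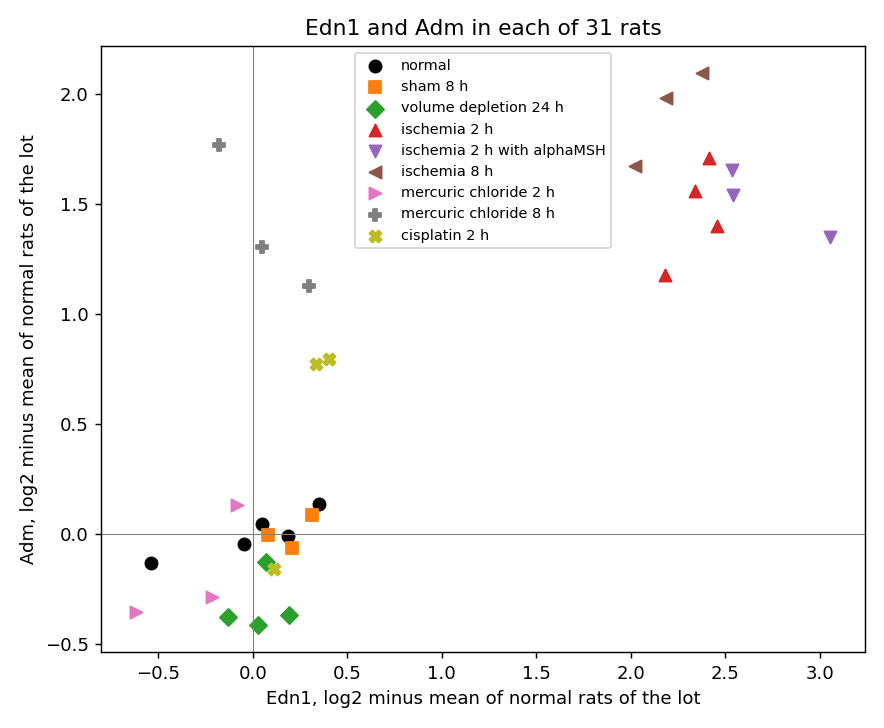
Change of Edn1 (horizontal axis) and Adm (vertical axis) in each of 31 rats from the mean of the normal rats of its lot, in log2 units, with a marker for each group. The 10 ischemia rats lie at the upper right, the 3 rats at 8 h of mercuric chloride lie between 1.13 and 1.77 for Adm with Edn1 near 0, and cisplatin rats 2 and 3 lie between these and the controls for Adm.

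Sham surgery without ischemia served as a further control at 8 h only. Relative to sham, the change at 8 h of ischemia was 1.99 ± 0.28 for Edn1 (3.98-fold, adjusted p = 1.17e-05) and 1.91 ± 0.30 for Adm (3.75-fold, adjusted p = 5.06e-05), where 22.9% of probes were called. With sham rat 3 in its deposited order the second probe of Edn1 lost its call here (1.70, adjusted p = 0.111) and in ischemia against cisplatin (2.62, adjusted p = 0.0548). Mercuric chloride at 8 h, which shares its lot with sham, differed from it by 1.39 ± 0.20 for Adm (2.63-fold, adjusted p = 2.86e-05) and by -0.15 ± 0.19 for Edn1 (adjusted p = 0.747), where 13.2% of probes were called.

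Between 2 h and 8 h of reperfusion, where 37.7% of all probes were called, no member was. Edn1 differed by -0.15 ± 0.17 (adjusted p = 0.512) and Adm by 0.45 ± 0.19 (adjusted p = 0.0598). The Adm difference was called without ischemia 2 h rat 3 (0.54, adjusted p = 0.0395) or ischemia 8 h rat 1 (0.57, adjusted p = 0.0328), and 3 of the 3 rats at 8 h lay above the mean of those at 2 h. Between ischemia with and without alphaMSH at 2 h, 0% of probes were called (0 of 9458 in limma, with 342 at an unadjusted p under 0.05). Edn1 was higher with alphaMSH by 0.36 ± 0.17 on the brighter probe, without overlap, and by 0.48 ± 0.21 on the other, with overlap, which did not pass the adjusted threshold (adjusted p = 1 for each, unadjusted p = 0.0476 and 0.0315). Adm differed by 0.05 ± 0.19 (adjusted p = 1), with a 95% interval from -0.34 to 0.44.

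Markers of tubule cells, vascular cells and leukocytes were measured on the same arrays. Of all probes, 14.7% were called at 2 h of ischemia and 41.6% at 8 h. For mercuric chloride these shares were 7.68% at 2 h and 10.9% at 8 h. Of 14 proximal tubule genes 10 were on the array, and at 8 h of ischemia 9 of the 10 were called lower, among them the endocytic receptor Lrp2 (-1.15 ± 0.19) and the sodium exchanger Slc9a3 (-2.39 ± 0.34). Their summed level was 195.0 to 298 there, against 392 to 548 in the normal rats of the lot. Mercuric chloride at 8 h had 5 of the 10 called lower, among them G6pc1 of gluconeogenesis (-2.94 ± 0.30), with a sum of 168 to 243 against 348 to 362. At 2 h, 0 of the 10 were called after ischemia and 2 were lower after mercuric chloride. The sum at 2 h was 352.9 to 366.5 after ischemia and 291.3 to 308.4 after mercuric chloride. Both lay below the 392 to 548 of the normal rats of lot 1. The median change of the list was -0.32 and -0.45, against -0.06 and -0.05 over all probes. Of 9 genes of the thick ascending limb and distal tubule 5 were on the array, and 4 were called lower at 8 h of ischemia, among them Egf (-2.33 ± 0.19), with a sum of 22.3 to 50.7 against 69.4 to 118. None of the 5 was called at 8 h of mercuric chloride. Of 10 collecting duct genes 7 were on the array and 6 were tested. At 8 h of ischemia 2 were called higher and 3 lower, with a median change of -0.43. The sum of the list was 16.8 to 27.4 there, against 20.9 to 25.1 in the normal rats of the lot. At 2 h 1 was higher and 1 lower, as with alphaMSH, where 13.2% of all probes were called.

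Of 22 endothelial genes 17 were on the array, and their summed level was 34.8 to 38.0 at 2 h of ischemia and 37.7 to 45.7 at 8 h, against 34.9 to 37.6 in the normal rats of lot 1. At 2 h 5 of the 17 were called higher and 2 lower, against 14.7% of all probes. Those higher were Sele, Selp, Thbd, Procr and Esam, adhesion and anticoagulant molecules of the endothelial surface and junction, and those lower were Tie1 and Icam2, while Pecam1 changed by -0.03 ± 0.15. At 8 h 6 were higher, among them Procr (3.21 ± 0.26), and 3 lower, among them Vwf (-1.81 ± 0.34), against 41.6% of all probes. For smooth muscle and pericytes 8 of 14 genes were on the array. Their summed level was 25.5 to 30.0 at 2 h of ischemia and 25.5 to 26.3 with alphaMSH, above the 16.9 to 19.3 of the normal rats of lot 1, and 17.5 to 21.7 at 8 h, with 1 of the 8 called at 2 h, Tagln (1.10 ± 0.16). The median change of the list at 2 h of ischemia was 0.03, against -0.06 over all probes. At 2 h of mercuric chloride the sum was 20.3 to 22.0, also above these normal rats. Sham rats had 13.7 to 25.6, against 14.3 to 15.0 in the normal rats of lot 2. Of 20 leukocyte genes 15 were on the array and 14 were tested. At 2 h of ischemia S100a9, a neutrophil protein (3.53 ± 0.43), and Cd14 (1.21 ± 0.24) were called higher and Ptprc, Csf1r and Ly86 lower. At 8 h 5 were called higher and 0 lower, S100a9 (5.02 ± 0.46), Cd14 (2.00 ± 0.26), the complement genes C1qb (1.83 ± 0.24) and C1qa (1.19 ± 0.25), and Fcgr3a (0.84 ± 0.33). The rats at 8 h of mercuric chloride had higher S100a9 (3.53 ± 0.51) and C1qb (0.96 ± 0.27), where 10.9% of all probes were called. The sum of the list was 59.6 to 70.9 at 2 h of ischemia, 66.2 to 89.4 at 8 h of ischemia and 54.8 to 93.1 at 8 h of mercuric chloride, against 57.2 to 75.4 and 49.9 to 52.6 in the normal rats of their lots. Sham rats, of lot 2, had 1 of the 14 called higher and 0 lower, where 0.348% of all probes were called. Their sum was 49.15 to 68.4. None of the measured markers of these lists had a mean level at the floor, the lowest being Cd4 (0.107), Cd8a (0.124) and Kdr (0.124). The part of these shifts in the changes of Edn1, Adm and Ednrb was not tested.

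Other genes of the same pathways were taken from a list of 66 genes, of which 38 were tested, and 25 of the 38 were called in at least 1 of the 8 comparisons with normal rats, as were 50.5% of all probes. At 8 h of ischemia 2 of 12 endothelin pathway genes were called higher and 2 lower, where 41.6% of all probes were called, with a median change of 0.18 against 0.01 over all probes. Plcb1, the phospholipase that receptors coupled to Gq activate, fell to 0.127 to 0.587 in the 3 rats from 1.09 to 1.78 in the normal rats, a change of -2.05 ± 0.36 (adjusted p = 5.46e-05). Itpr3, an inositol trisphosphate receptor that releases calcium, rose at 8 h by 1.25 ± 0.15 (adjusted p = 2.85e-07) and at 2 h by 0.46 ± 0.14 (adjusted p = 0.0275). At 2 h of ischemia 2 of the 12 were called higher and 0 lower, against 14.7% of all probes. With alphaMSH these counts were 1 and 0, against 13.2%, and in the other 5 groups none was called.

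Of the adrenomedullin pathway 5 of 14 genes were tested. At 8 h of ischemia, with 41.6% of all probes called, 3 were called higher and 1 lower, with a median change of 0.75, and the receptor subunit Calcrl was not analysed here. Ramp2, chosen after its values were seen because it forms the adrenomedullin receptor together with Calcrl, rose by 1.08 ± 0.19 at 8 h of ischemia (adjusted p = 5.35e-05). At 2 h of ischemia 1 of the 5 was higher, against 14.7% of all probes. At 2 h of mercuric chloride 1 was lower, against 7.68% of all probes.

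Of 35 genes of nitric oxide synthesis and signalling 21 were tested. At 8 h of ischemia 7 were called higher and 8 lower, with a median change of 0.10, where 1969 of all probes were called higher and 1977 lower (41.6%). At 2 h of ischemia 2 were higher and 1 lower, against 14.7% of all probes. With alphaMSH 1 was higher and 1 lower, against 13.2%. Mercuric chloride at 2 h had 0 higher and 2 lower of 20 tested, against 7.68%. At 8 h it had 1 higher and 5 lower of the 21, against 10.9%. Of 4 listed subunits of soluble guanylate cyclase, the receptor of nitric oxide, 2 were measured. Gucy1a1 was at 0.865 to 1.10 at 2 h of ischemia against 1.60 to 2.48 in the normal rats, with changes of -1.14 ± 0.21 at 2 h (adjusted p = 0.000466), -1.23 ± 0.23 with alphaMSH (adjusted p = 0.00047) and -0.96 ± 0.23 at 8 h (adjusted p = 0.0015). Gucy1b2 changed by -0.03 ± 0.20 at 2 h (adjusted p = 0.983) and fell at 8 h of ischemia to 1.06 to 1.49 from 3.91 to 5.45, a change of -1.95 ± 0.21 (adjusted p = 5.22e-08), and at 8 h of mercuric chloride by -0.79 ± 0.23 (adjusted p = 0.0283).

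Genes that supply the synthases with cofactor and substrate also changed. Gch1, the rate-limiting enzyme of tetrahydrobiopterin synthesis, was at the floor in 2 of 3 normal rats of lot 1 and at 0.127 to 0.207 at 2 h of ischemia, 0.178 to 0.193 with alphaMSH and 0.148 to 0.316 at 8 h. It was called higher in these 3 groups (adjusted p = 0.0403, 0.0128 and 6.99e-05), but the size of its change depends on the floor. Gchfr, the feedback inhibitor of Gch1, fell at 8 h of ischemia by 1.23 ± 0.15 on the log2 scale (adjusted p = 2.95e-07), and in mercuric chloride rats by 0.51 at 2 h and 0.69 at 8 h (adjusted p = 0.0324 and 0.00665). Slc7a7, a transporter of arginine and other cationic amino acids, fell after mercuric chloride from 6.22 to 7.63 in the normal rats of lot 1 to 2.82 to 3.49 at 2 h, a change of -1.17 ± 0.24 (adjusted p = 0.00312), and had a change of -1.20 ± 0.27 at 8 h (adjusted p = 0.00372). It was also called lower at 8 h of ischemia, at 2.69 to 7.08 with overlap of the normal rats, a change of -0.70 ± 0.24 (adjusted p = 0.023). Dynll1, a dynein light chain that binds Nos1, was at 22.5 to 29.4 at 8 h of ischemia against 11.4 to 12.96 in the normal rats, a change of 1.15 ± 0.17 (adjusted p = 7.93e-06). In cisplatin, sham and volume depletion rats none of the 38 pathway genes was called, against 0.58%, 0.348% and 0.169% of all probes.

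**Figure D5:**
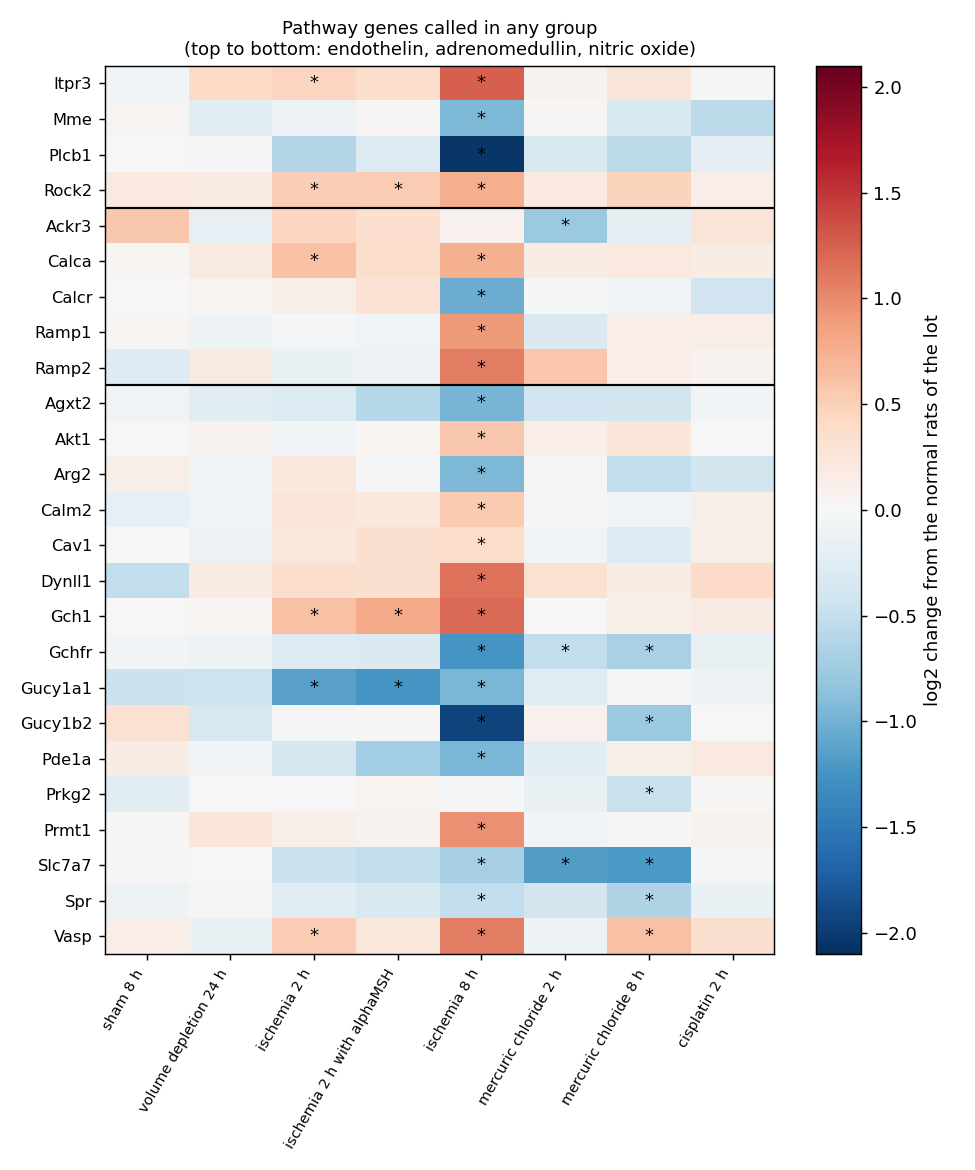
Change from the normal rats of the lot in log2 units (colour) for the 25 genes of the endothelin, adrenomedullin and nitric oxide pathways called in any of 8 groups, with an asterisk at an adjusted p under 0.05. Most asterisks lie in the column of 8 h of ischemia, and the largest falls there are Plcb1 (-2.05) and Gucy1b2 (-1.95).

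HIF targets other than Adm were described for comparison, since Adm is one of them. Of 19 tested, 5 were called higher and 1 lower at 2 h of ischemia, where 14.7% of all probes were called. The median change was 0.18, against -0.06 over all probes. Those higher were Slc2a1 and Hk2, of glucose uptake and glycolysis, P4ha1, a collagen hydroxylase, Ankrd37, and Hmox1, heme oxygenase, which oxidative stress also induces, and the lower one was Bnip3l. After 8 h of ischemia 9 were higher and 3 lower, against 41.6% of all probes called. With alphaMSH 6 were higher and 0 lower, where 13.2% of all probes were called. At 8 h of mercuric chloride 3 were higher and 2 lower, against 10.9% of all probes. The median change of the list there was -7e-04, against -0.0275 over all probes. At 2 h of mercuric chloride 2 were higher and 1 lower, against 7.68% of all probes. The 3 higher at 8 h of mercuric chloride, where Adm rose, were Hmox1 (6.90 ± 0.33), P4ha1 (1.12 ± 0.26), at 3.71 to 5.29 against 1.94 to 2.33 in the normal rats of the lot, and Slc2a1 (0.80 ± 0.24), at 3.59 to 4.57 against 2.32 to 2.51. The 2 lower were Ankrd37 (-0.83 ± 0.21) and Eno1 (-0.77 ± 0.22).

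Genes with the most similar pattern were ranked by Pearson's correlation over the 26 treated rats, each value taken from the mean of its lot's normal rats, among 5740 probes. The rats form separate groups, so a high value mostly says that a gene is high in the same groups. For Edn1 these were Medag (0.967), Itpkc (0.962), Sphk1 (0.955), Rela (0.944) and Tes (0.943). For Adm they were Ppp1r15a (0.932), Fosl1 (0.916), Ube2j1 (0.913), Ptp4a1 (0.908) and Pelo (0.906), none of which is among the 5 of Edn1. Edn1 and Adm themselves correlated at 0.773 over these rats. Ednrb had no gene as close, with Adipor2 (0.752), Myh9 (0.735), Hspa13 (0.715), Birc2 (0.712) and Lnpep (0.700) nearest.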

How the data were processed

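Kidney RNA of 31 rats was labelled with biotin by the CodeLink standard protocol, per the labels' protocols. For the scanner software and the background correction, the sources used here give nothing. As read from the values, what the authors deposited is 2 to the power of an intensity scaled to its array: 99.39% of their log2 were whole multiples of 0.0001 (within 1e-06), and array medians of log2 were 0.9987 to 1.0. Their log2 was used as linear intensity. A deposited 0.5 was a fill value (0.969% of values) and was treated as missing.

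Intensities were divided by the array median, floored at 0.1 and taken to log2, and the 2 arrays of a rat were averaged. Probes measured in 2 rats of each group compared and in 2/3 of all rats, with at least 3 above the floor, were fitted with limma 3.58.1 (R 4.3.3) by group and lot, with 21 residual degrees of freedom and Benjamini-Hochberg adjustment per comparison (16 comparisons). The annotation gave 1 symbol for 7229 probes, several for 21 and none for 2661, and 51 were named by accession. The fit was tested on simulated data.

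The design text counts 3 normal arrays per lot, and the labels list 7 arrays of 5 normal rats. The genes given with values by rule were the members, the 8 pathway genes of largest change among those called, and the 5 most similar genes. Ramp2, the cell type markers and the HIF targets given with values were not chosen by this rule. The members and lists were chosen with earlier results of these data known. The number of arrays limited the precision.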

Additional observations from a re-analysis of the deposited data

Results flagged for a closer look

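Among 17 sets of values, each of 1 member's probe in 1 group of 4 or 5 rats, 2 had a single rat apart from the rest, and chance alone gives about 1 in 20. Ednrb in volume depletion rat 4 was at 0.512, below the 0.599 to 0.610 of the other 3 rats, a gap of 0.891 of the group's range. Adm in volume depletion rat 1 was at 0.737, above the 0.605 to 0.624 of the other 3 rats, a gap of 0.843 of the range. The change of Adm differed between 8 h and 2 h of mercuric chloride by 1.57 on the log2 scale (adjusted p = 0.0084 in limma), with the 3 rats at 8 h above the normal rats and the 3 at 2 h around them.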

How the results depend on the processing

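The calls of Edn1 (brighter probe) and Adm in the 3 ischemia groups against normal rats held under all alternatives run. So did those of Edn1 in all comparisons of ischemia with other groups. The alternatives were other floors, log2 of value plus 0.1, quantile normalization, no filter, a variance trend and the first array of each rat. Others were no lot term, only the groups compared, sham rat 3 as deposited and leaving out rats. A replicate block was run where it could be fitted. Pooling all normal rats with no lot term gave 2 members called at 8 h of mercuric chloride, 2 in cisplatin, 2 between 8 h and 2 h of mercuric chloride, 2 between ischemia and mercuric chloride at 8 h and 4 between ischemia and cisplatin. The added calls were Ednrb at 8 h of mercuric chloride (0.70, adjusted p = 0.0183), in cisplatin (1.08, adjusted p = 0.0046), between the times of mercuric chloride (0.85, adjusted p = 0.0148) and between ischemia and cisplatin (-0.85, adjusted p = 0.00601), Nos1 in cisplatin (0.54, adjusted p = 0.0468) and between ischemia and cisplatin (-0.69, adjusted p = 0.00318), and Adm between ischemia and mercuric chloride at 8 h (0.81, adjusted p = 0.00313) and between ischemia and cisplatin (1.29, adjusted p = 2.37e-05). The normal rats of lot 2 differed from those of lot 1 by 0.50 for Ednrb, -0.29 for Adm and 0.17 for Nos1. A fit with no lot term leaves these differences in the changes. The cause was not tested. With sham rat 3 as deposited, 0 members were called at 8 h of mercuric chloride and 0 between its times, and fitting only the groups compared also gave 0 between its times. Between 8 h and 2 h of ischemia 1 member, Adm, was called with log2 of value plus 0.1 and with the first array alone. Leaving out 1 rat each, the number of members called ran from 0 to 1 for this comparison, for cisplatin, for 2 h of mercuric chloride and for the times of mercuric chloride, and from 1 to 2 for ischemia against cisplatin. Ednrb kept its direction throughout in the 2 groups where it was called, but missed the threshold in 9 of 18 alternatives with alphaMSH (adjusted p up to 0.169) and 2 of 18 at 8 h of ischemia (up to 0.109). At 2 h of ischemia Ednrb was called without 3 arrays that stand apart (0.64, adjusted p = 0.0441). With the replicate number as a block, Ednrb with alphaMSH was 0.70 with an adjusted p of 0.0571. No other member's call changed in the comparisons where the block could be fitted. It could not be fitted for mercuric chloride at 8 h, cisplatin or sham against normal rats, or for comparisons between lots. Same-numbered rats correlated from -0.59 to 0.536 (median 0.019) in their deviations, with 33 of 109 pairs over 0.1. Signal limits Ednra, Nos1 and Nos2, which lie near the floor.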
